A study of Mus musculus with 8 samples.

Results

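Regions of open chromatin called only in libraries of BV2 microglial cells that had shared a dish with glioma cells in ordinary oxygen are described here. They were chosen by their peak calls. Overlapping peaks of 8 libraries on chromosomes 1 to 19 and X were merged into 40770 regions, and a region was kept when both libraries of normoxic co-culture had a peak in it and none of the other 6 libraries did. This left 315 regions, 0.773% of all regions. The same rule applied to the other groups gave 807 regions for hypoxic co-culture, 839 for hypoxic monoculture and 16 for normoxic monoculture. Because the calls chose the regions, their presence in 1 group is not a result, and their ranks in that group are given as a description.

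BV2 is an immortalised mouse microglial cell line and GL261 is a mouse glioma line. BV2 cells were grown alone, or were seeded onto GL261 cells that outnumbered them, and were then kept for 16 h at 21% oxygen or below 0.1% oxygen. This gave 4 groups, namely monoculture in normoxia, monoculture in hypoxia, co-culture in normoxia and co-culture in hypoxia, with 2 biological replicates in each. Hypoxic cells were fixed before they left the chamber, and cells carrying CD45 or GFP were sorted for the assay, and the labels do not say which marker was used for which library. The labels name no genetic change for any group beyond that GFP, and the microglial cells of every group are the BV2 line.

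ATAC-seq marks open chromatin by where the Tn5 transposase can insert adapters. Open stretches are mostly promoters, at which transcription starts, and enhancers, which act on promoters from a distance and differ more between cell states. Microglia are the resident macrophages of the brain, and in a glioma they are known to take on a state shaped by signals and contacts from the tumour cells.

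A region that a library lacks is a region that passed no threshold there, and the lists differed in length. Normoxic monoculture had 13326 and 9903 peaks on these chromosomes, and the other 6 libraries had between 21625 and 29647. Background coverage, solved from the deposited values, lay between 0.758 and 1.448 fragments per position, lowest in the 2 normoxic monoculture libraries. In bulk libraries, fewer cells with an open site and less opening in each cell cannot be told apart. Peaks lay within 10 kb of Csf1r and of Ptprc, which encodes CD45, in all 8 libraries, whereas Spi1, the gene of the myeloid factor PU.1, had none in either normoxic monoculture library or in replicate 2 of hypoxic co-culture.

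Markers of glioma and glial cells were counted in each library. Of 24 such genes, 4 and 2 had a peak within 10 kb in normoxic monoculture, 6 and 8 in hypoxic monoculture, 14 and 9 in normoxic co-culture, and 15 and 11 in hypoxic co-culture. Of 21 mesenchymal and matrix genes, 2 and 1, 8 and 10, 10 and 10, and 15 and 12 had one in the same order. Lists of other kinds also held fewer genes with a peak in the short lists of normoxic monoculture, for example 19 and 12 of 26 hypoxia targets against 24 and 24 in normoxic co-culture. Of the 24 glioma and glial genes, 9 (among them Sox2, Nes, Pdgfra, Ncan and Gfap) had peaks in co-culture libraries alone, 8 in both cultures, 0 in monoculture alone and 7 in no library, among these Olig2. Of the 9, Ncan had one in each library of normoxic co-culture and the other 8 genes in at most 1 of them. Of the 21 mesenchymal genes, 7 had peaks in co-culture alone and 1 in monoculture alone. Of the 24 microglia and macrophage genes, 20 had peaks in both cultures and 4 in none. In the other lists, 3 of 35 inflammatory, 1 of 30 interferon and 1 of 32 adhesion genes had peaks in co-culture alone. None of the 26 hypoxia targets or 23 lipid genes did. Among all 12941 protein-coding genes with any region, 87.5% had a monoculture peak, counted inside the gene and not within 10 kb. None of the glioma and glial genes and none of the mesenchymal and matrix genes had 1 of the 315 regions within 10 kb. The part of GL261 chromatin in the 315 regions was not tested.

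Promoter sequences are shown for the regions that reached a start site. Of the 315 regions, 52 overlapped a promoter window of the RefSeq GRCm38.p6 table, which runs from 250 bases before a start site to 50 bases after it, and 49 of these held the start site itself. The windows overlapped by the 8 highest-ranked regions of this kind were chosen for printing; that of Gm11009, inside a region of 333446 bp, consists mostly of undetermined bases and is left out. Each is written 5′ to 3′ along the gene's strand. Capitals mark matches, on either strand, to the 11 motifs that were searched. The windows of Elovl6, Zfp365 and 1700054K19Rik lie only partly in their regions (247, 198 and 174 bases), and the first match in the 1700054K19Rik window, GAGGAAGT, lies outside the region.
Gm30933 (chr9:30426929-30427228, minus strand): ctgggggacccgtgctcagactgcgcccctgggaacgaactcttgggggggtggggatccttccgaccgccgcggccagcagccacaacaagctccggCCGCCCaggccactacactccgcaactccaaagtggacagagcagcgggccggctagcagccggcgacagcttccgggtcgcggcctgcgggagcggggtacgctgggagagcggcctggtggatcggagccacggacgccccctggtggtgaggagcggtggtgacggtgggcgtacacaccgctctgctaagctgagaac
Elovl6 (chr3:129532136-129532435, plus strand): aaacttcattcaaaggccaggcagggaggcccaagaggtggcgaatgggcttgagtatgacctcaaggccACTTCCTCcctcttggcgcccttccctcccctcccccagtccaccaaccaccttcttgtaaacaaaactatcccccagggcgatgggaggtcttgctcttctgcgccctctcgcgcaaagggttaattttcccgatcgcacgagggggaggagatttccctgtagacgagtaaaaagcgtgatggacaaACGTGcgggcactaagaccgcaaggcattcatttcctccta
Eif4enif1 (chr11:3202103-3202402, plus strand): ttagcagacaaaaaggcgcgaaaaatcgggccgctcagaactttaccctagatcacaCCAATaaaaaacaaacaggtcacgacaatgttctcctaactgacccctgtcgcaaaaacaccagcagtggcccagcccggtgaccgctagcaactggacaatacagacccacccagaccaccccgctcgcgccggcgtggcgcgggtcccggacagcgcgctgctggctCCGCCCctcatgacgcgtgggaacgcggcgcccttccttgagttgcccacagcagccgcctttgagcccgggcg
Lin54 (chr5:100498524-100498823, minus strand): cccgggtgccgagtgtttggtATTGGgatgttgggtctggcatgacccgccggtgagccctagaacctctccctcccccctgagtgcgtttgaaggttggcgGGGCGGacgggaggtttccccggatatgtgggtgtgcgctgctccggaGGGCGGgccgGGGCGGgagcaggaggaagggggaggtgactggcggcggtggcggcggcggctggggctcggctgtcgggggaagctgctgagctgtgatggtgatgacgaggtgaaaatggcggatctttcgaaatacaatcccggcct
Adarb1 (chr10:77418224-77418523, minus strand): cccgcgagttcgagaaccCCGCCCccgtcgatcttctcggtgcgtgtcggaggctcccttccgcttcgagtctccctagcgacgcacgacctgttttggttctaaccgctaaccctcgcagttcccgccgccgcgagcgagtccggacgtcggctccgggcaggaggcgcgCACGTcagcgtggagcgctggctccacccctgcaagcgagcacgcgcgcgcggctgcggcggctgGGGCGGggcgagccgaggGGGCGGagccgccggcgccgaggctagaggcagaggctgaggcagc
Zfp365 (chr10:67912613-67912912, minus strand): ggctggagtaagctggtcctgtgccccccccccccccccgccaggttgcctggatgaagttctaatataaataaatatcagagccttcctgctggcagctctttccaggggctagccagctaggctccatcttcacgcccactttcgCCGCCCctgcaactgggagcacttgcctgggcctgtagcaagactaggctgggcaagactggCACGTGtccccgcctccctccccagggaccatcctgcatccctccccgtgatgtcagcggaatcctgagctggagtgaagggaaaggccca
1700054K19Rik (chr6:112210458-112210757, plus strand): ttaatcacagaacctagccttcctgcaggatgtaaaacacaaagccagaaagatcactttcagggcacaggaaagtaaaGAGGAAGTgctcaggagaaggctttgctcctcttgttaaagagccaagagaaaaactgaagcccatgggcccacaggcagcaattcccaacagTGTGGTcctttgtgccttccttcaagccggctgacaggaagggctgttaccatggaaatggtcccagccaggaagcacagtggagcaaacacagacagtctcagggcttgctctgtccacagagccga

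These windows belong to genes of varied roles. Gm30933 starts opposite Snx19, a sorting nexin gene, so its window is read away from Snx19. Elovl6 elongates long-chain fatty acids, Eif4enif1 encodes a carrier of the cap-binding translation factor eIF4E, and Lin54 encodes a DNA-binding subunit of the DREAM complex of cell cycle control. Adarb1 encodes ADAR2, which edits adenosine to inosine in RNA, and Zfp365 encodes a zinc finger protein. The searched motif letters GGGCGG (SP/KLF, a GC box) matched in 5 of the 7 printed windows, and CCAAT (NF-Y) in 2.

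The 315 regions were weak peaks in both normoxic co-culture libraries. To rank a peak, its −log10 p was placed among all peaks of its own list, so that a percentile of 25 means that 25% of that list ranked below it. The median percentile was 25.1 in replicate 1 (range 1.4 to 84.0) and 23.6 in replicate 2 (range 0.0 to 88.6). The summits held a median of 15 fragments in replicate 1 (range 7 to 59) and 16 in replicate 2 (range 7 to 76), against 24 and 26 at all peaks of the same lists. The lower of a region's 2 percentiles had a median of 15.4, was at least 50 in 16 regions and was below 25 in 214.

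Within the 315 regions, percentiles in the replicates were only loosely related. Across the 315 regions Pearson's r was 0.468 and Spearman's coefficient 0.425, whereas across all 16547 regions with a peak in both libraries Pearson's r was 0.815. The 315 lie mostly at low ranks, and a narrower range by itself lowers such a coefficient. The difference between the coefficients therefore does not show poorer agreement of the replicates at these regions. Regions are not independent replicates, and the points of each axis share a library. Replicate 1 gave the higher percentile in 169 regions. The summits in the replicates lay a median of 50 bp apart, a distance that the rule bounds, since both peaks fall in 1 merged region.

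**Figure D1:**
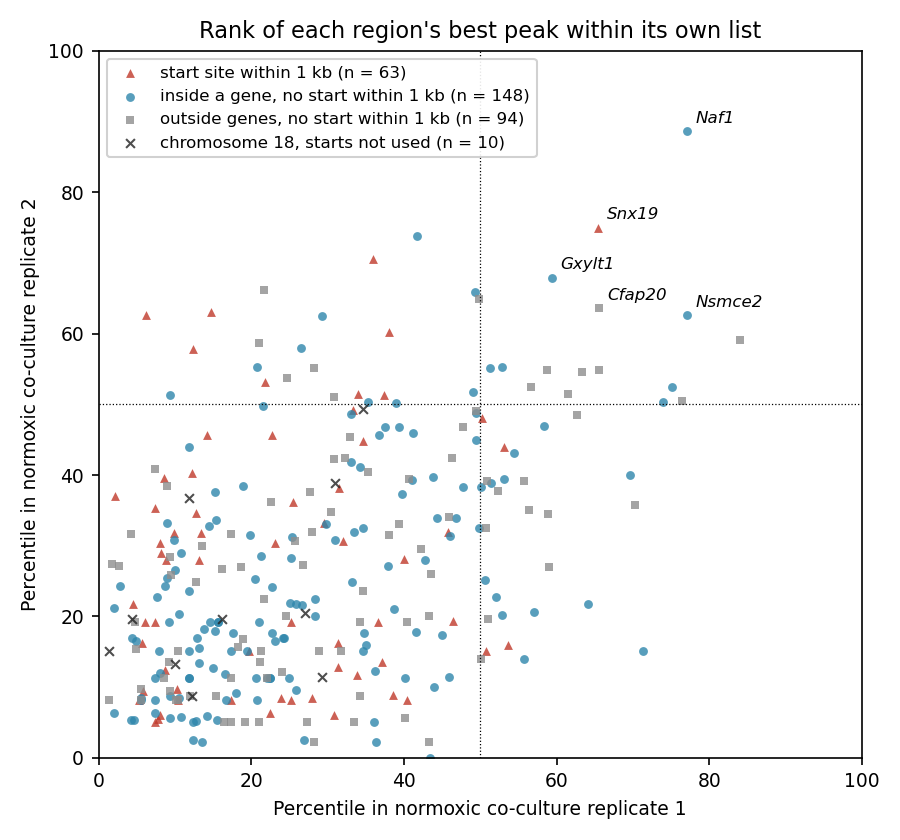
Each point is 1 of the 315 regions, placed by the percentile of its best peak in normoxic co-culture replicate 1 (horizontal axis) and replicate 2 (vertical axis), with the shape and colour giving its position relative to genes and dotted lines at 50. Most points lie in the lower left, 16 regions reach 50 in both libraries, and the 5 regions of highest rank carry a gene name.

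Regions shared with more libraries ranked higher. Among regions called in both libraries of normoxic co-culture, the median lower percentile was 15.4 where no other library had a peak, 20.6 with 1 other, 25.7 with 2, 29.3 with 3, 36.1 with 4, 51.6 with 5 and 77.1 with all 6. The 315 regions made up 1.90% of these 16547 regions, and 38.5% had a peak in every library. Their median width was 523 bp, against 988 bp for regions of all 8 libraries. A region's width spans all peaks merged into it, so it tends to grow with the number of libraries.

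**Figure D2:**
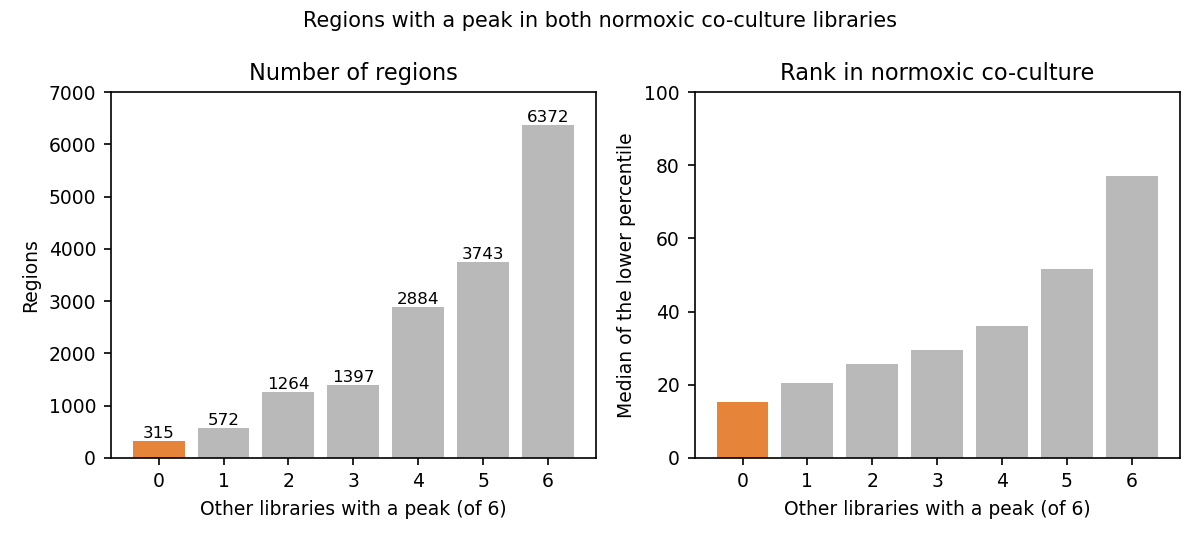
Regions called in both libraries of normoxic co-culture, split by how many of the other 6 libraries had one (horizontal axes). The left bars count regions, from 315 with 0 others (orange) to 6372 with all 6, and the right bars give the median of the lower percentile, from 15.4 to 77.1.

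The near misses lay mostly in 1 library. For 572 regions a single other library had a peak, and in 307 of them (53.7%) it was replicate 1 of hypoxic co-culture, the longest list. Replicate 2 of hypoxic monoculture held 95, replicate 2 of hypoxic co-culture 71, and the remaining libraries 11 to 46 each. Leaving that longest list out raised the number of regions to 630, and accepting a peak in 1 normoxic co-culture library gave 1662 without replicate 1 and 1290 without replicate 2. When every list was shortened to its 9903 strongest peaks, 171 regions met the rule and only 9 of the 315 were among them, those at Naf1, Snx19, Cfap20, Nsmce2, Gxylt1, Gm13937, Rxrg, Gm10051 and Vrk1.

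The rule drew a narrow part of 2 wider sets. Of all regions, 12.4% (5075) were called in both libraries of normoxic co-culture and in neither library of normoxic monoculture, and the 315 were 6.21% of those. A further set of 836 regions, 2.05% of all, were called in both of those libraries and in neither library of hypoxic co-culture, and the 315 were 37.7% of those. At the threshold, the 3 weakest regions inside had a −log10 q of 2.08 in replicate 2. They lay in Sash1 (chr10:8898430-8899370), in the non-coding RNA gene Gm40436 (chr12:70616017-70616658) and 22094 bp from Prickle2 (chr6:92728428-92728983). The 3 nearest outside each had 1 weak peak in another library. These lay 2503 bp from Tnfrsf1b (chr4:145209381-145209865, −log10 q of 2.23 in hypoxic monoculture replicate 2), in Syne2 (chr12:76015902-76016618, 2.24 in hypoxic monoculture replicate 1) and near Gm39683 (chr1:156733527-156734272, 2.46 in hypoxic co-culture replicate 2).

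The region of highest rank spanned an end of Naf1 (chr8:66859915-66860372), whose product assembles box H/ACA ribonucleoproteins such as telomerase. Its peak stood at percentile 77.1 with 43 fragments in replicate 1 and at 88.6 with 76 fragments in replicate 2. Another region, called in 4 libraries, lay 663 bp away. The promoter table used here holds no entry for Naf1, so the plots count the region as inside a gene.

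The region of second rank (chr9:30426900-30427317) lay over the start of Gm30933 and reached into Snx19. It had percentiles of 65.5 and 75.0, with 31 and 45 fragments. The next in a gene was in Nsmce2 (chr15:59548800-59549207), a SUMO ligase of the SMC5/6 complex of DNA repair, with percentiles of 77.1 and 62.6. Gxylt1 (chr15:93268151-93268504), which adds xylose to glucose on Notch, followed with 59.4 and 67.9. Both replicates thus placed these regions above the middle of their lists, unlike most of the 315.

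Of the 25 regions of highest rank, 13 overlapped a gene, 1 held a start site of the table and 12 had no other region within 10 kb. Several genes are known from signalling, matrix and chromatin. Axin2, a target and brake of Wnt signalling, held a region (chr11:108933766-108934183) at percentiles 75.1 and 52.4. Fbln5, which builds elastic fibres, held one (chr12:101807278-101807904) at 74.0 and 50.3. Ext1, a polymerase of heparan sulfate, held one (chr15:53224052-53224585) at 51.3 and 55.2, and Hdac4, a class IIa histone deacetylase, one (chr1:92034280-92034710) at 58.3 and 46.9. Serinc5, a membrane protein known to restrict retroviruses, held one (chr13:92703231-92703856) at 49.0 and 51.8. Regions in Pdgfrl, Pcnx, Rpia (an enzyme of the pentose phosphate pathway) and 9930021J03Rik had lower percentiles of 52.8, 49.3, 48.8 and 48.0.

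The other 12 of the 25 lay outside genes. The closest was 345 bp from the pseudogene Gm13937 (chr2:110210612-110211018), with percentiles of 84.0 and 59.1. The region nearest to Slc31a2, a copper transporter gene, was 4878 bp away (chr4:62274953-62275515; 76.5 and 50.5), and that nearest to Cfap20, a ciliary gene, 8220 bp away (chr8:95411521-95412029; 65.6 and 63.6). Those nearest to the non-coding RNA genes I730030J21Rik and 1700112H15Rik were 4795 and 8111 bp away. The remaining 7 were between 10093 bp (Mta3, of the NuRD complex) and 229400 bp (Dipk2b) from the nearest gene, the others being nearest to Rxrg, a retinoid X receptor, Gm10051, Vrk1, Gpd1l and Gm35567. For such distances the nearest gene is only a landmark.

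Position relative to genes was near that of all regions and not near that of the set the 315 come from. Start sites are not given for chromosome 18 in the promoter table, so start-site shares use the other 305 regions. Of these, 63 (20.7%, exact Clopper-Pearson 95% interval 16.2% to 25.6%) lay within 1 kb of a start, 48.5% lay inside a gene farther than that from a start, and 30.8% lay outside genes. For all regions the shares were 23.9%, 47.4% and 28.6%. For all regions called in both libraries of normoxic co-culture they were 41.4%, 38.8% and 19.9%. Of these, the 41.4% near a start is above the interval of the 315. That share rose with the number of other libraries with a peak, from 21.3% with 1 to 49.7% with 6. Regions of hypoxic co-culture alone had 24.4% near a start, and those of hypoxic monoculture alone 3.42%. The difference from hypoxic monoculture was outside the counting intervals, whose upper bound for that class was 4.91%, but these describe counting error only and all classes come from 2 libraries each. Whether a region within a gene lay in an exon, an intron or a UTR was not analysed here.

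**Figure D3:**
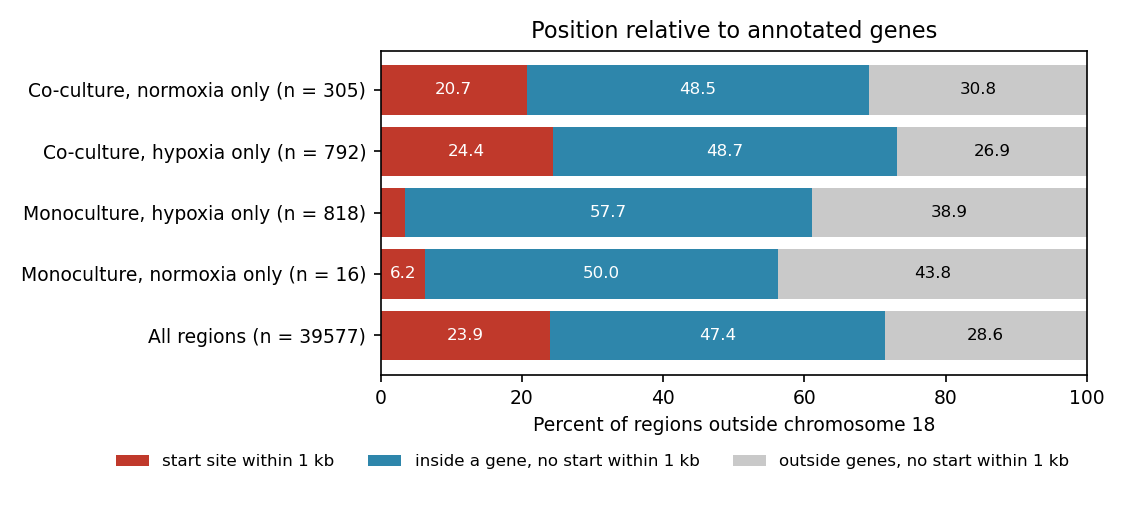
Stacked bars give the percent of regions outside chromosome 18 (horizontal axis) near a start site, inside a gene or outside genes, for regions called in both libraries of 1 group alone and for all regions. Normoxic co-culture has 20.7% near a start site, hypoxic monoculture 3.42% and all regions 23.9%.

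Each region was assigned 1 gene of the gene table, a protein-coding gene first where it overlapped several. By that gene, 195 of the 315 regions overlapped a protein-coding gene, 19 a long non-coding RNA gene and 1 a pseudogene. The overlapped or nearest genes were 306 different ones, 9 of them with 2 regions and 0 with more. A median of 11530 bp separated a region from the next region of any kind, and 142 (45.1%) had one within 10 kb, against 48.3% of the regions of hypoxic co-culture alone and 52.9% of those of hypoxic monoculture alone. A region found in all 8 libraries lay within 10 kb of 23 (7.30%), against 4.21% and 10.7%. Another of the 315 lay within 100 kb of 22. Chromosome 10 had the highest share, 1.42% of its regions, and chromosome 19 the lowest, 0.217%.

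The genes that held such a region were also looked at as a whole. Of 206 protein-coding genes that held at least 1 of the 315, 127 (61.7%) had a monoculture peak elsewhere in the gene and 52 (25.2%) held a region found in all 8 libraries. For 500 genes that held a region of hypoxic co-culture alone the shares were 57.2% and 19.4%. Among all 12941 protein-coding genes with any region they were 87.5% and 37.8%, where the region that put a gene in the set may itself be the one counted. The other 79 had no monoculture peak in the gene, and for 55 of them the region was the gene's sole one. Ptprb, a receptor tyrosine phosphatase known from blood vessels, had 4 regions and 0 monoculture peaks. Replicates 1 and 2 of normoxic co-culture had 4 and 3 of the Ptprb regions, and those of hypoxic co-culture 1 and 0. Since 2 of the 4 are among the 315, the rule set most of that count, and without them it is 2 and 1 in normoxic co-culture against 1 and 0 in hypoxic co-culture. The 2 Ptprb regions among the 315 (chr10:116371247-116371905 and chr10:116379879-116380505) had lower percentiles of 16.5 and 11.3, near the median of the 315.

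Other genes without a monoculture peak, named after their values were seen, had few regions besides those of the 315, which are left out of the counts that follow. In Serinc5, normoxic co-culture had 2 and 1 further regions and hypoxic co-culture 1 and 1. In Axin2 the counts were 1 and 1 in each. Fat1, a large cadherin, had 1 and 0 in normoxic and 2 and 1 in hypoxic co-culture. In Fbln5 the region among the 315 was the gene's only one. Sox5, a transcription factor of glial and cartilage development, held 2 of the 315 but 16 regions in all, 11 with a monoculture peak.

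Elovl6 had a region at both of its ends. The first (chr3:129532189-129532519) held the start site, with percentiles of 53.1 and 44.0 and 36 and 40 fragments. The second (chr3:129640220-129640748) lay 1725 bp outside the gene at 46.3 and 42.4, with 23 and 21 fragments. Both thus ranked well above the median of the 315.

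Lists of genes with a known role held few of the regions. Of 215 listed genes, 3 (1.40%) had 1 of the 315 within 10 kb, against 0.854% of all 49550 genes. Among genes with any region that near, the shares were 1.55% of 193 and 1.63% of 25990, so the lists were close to the background. The lists of hypoxia targets, interferon and antigen presentation, inflammatory signalling and AP-1, lipid handling, glioma and glial cells, and mesenchymal genes had 0 each. The microglia list had 1 of 24, and the list of adhesion, migration and cytoskeleton genes 2 of 32.

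The microglial gene was Tmem119, a surface marker of brain microglia that other macrophages largely lack. Its region (chr5:113800193-113800713) had percentiles of 38.7 and 21.1, with 18 and 14 fragments. A single further region lay within 10 kb of Tmem119, and it was called in replicate 1 of normoxic monoculture alone. The adhesion genes were Arhgef3 and Src, the latter a tyrosine kinase of adhesion signalling. With lists of equal length none of these 3 genes had a region of the rule, and Acly and Runx1 did. The Arhgef3 region (chr14:27367180-27367628) had percentiles of 49.5 and 44.9, among 18 regions within 10 kb of the gene. The Src region (chr2:157457336-157457804) had 10.8 and 28.9, and Src had 5 regions that near.

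Of the 49 regions with a start site inside, 4 more are named here, chosen after their values were seen. Tpi1, a glycolytic enzyme gene that hypoxia is known to induce, had percentiles of 32.0 and 30.6 (chr6:124813739-124814309), and a region lay 3670 bp away. Ifih1, which encodes the viral RNA sensor MDA5, had 29.5 and 33.2 (chr2:62645763-62646323). Dnmt3b, a DNA methyltransferase of early development, had 19.7 and 15.1 (chr2:153649418-153649966), and Ppara, a nuclear receptor of fatty acid oxidation, 38.6 and 8.9 (chr15:85735310-85735789). These were ordinary to low ranks in both lists.

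A microRNA gene was covered as well. A region of chr10:122985626-122986570 spanned the hairpin of Mirlet7i (chr10:122985640-122985724, minus strand), with percentiles of 10.0 and 26.6. let-7 microRNAs are known to restrain growth genes in differentiated cells. The mature RNA of the 5′ arm is shown because its seed (bases 2 to 8, in capitals) defines the family.
mmu-let-7i-5p: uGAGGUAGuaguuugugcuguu

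Motif letters in the promoter windows were counted on both strands. Leaving out regions wider than 10 kb, 68 windows of 59 genes overlapped the 315 regions, and some share a region. The GC box GGGCGG matched in 48 of the 68 (70.6%), against 66.5% of the 4344 windows under regions of all 8 libraries and 35.9% of all 32619 windows. The letters ACGTG (HRE), the core bound by hypoxia-inducible factors, matched in 33.8%, 28.3% and 19.8%. Wide regions were left out for the 68 windows alone. With them left out, 4122 windows under regions of all 8 libraries matched GGGCGG in 69.6% and ACGTG in 29.3%. The shares of the 68 windows were near those of the windows open in all libraries. So was the mean GC content, 63.3% against 60.7%, with 53.9% in all windows.

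The CCAAT box, bound by NF-Y, was less frequent. It matched in 9 of the 68 windows (13.2%), against 46.6% under regions of all 8 libraries and 37.6% of all windows. With 1 window taken per region it matched in 8 of 51 (15.7%). With wide regions left out, the share lay between 30.6% and 46.3% under regions of both normoxic co-culture libraries and 1 or more others. The 46.3% is the class of all 8 libraries, given above as 46.6% with wide regions kept. Under regions of hypoxic co-culture alone the share was 33.2% of 208 windows. The motif was 1 of 11 searched and was singled out after the shares were seen, and the windows give no test over libraries.

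The remaining motifs are given with their shares under regions of all 8 libraries and in all windows. TGANTCA (AP-1) matched in 1 of the 68 windows (1.47%, against 5.09% and 7.85%), and TGACGTCA (CRE) in 0 (3.5% and 1.8%) and the NF-kB motif in 0 (0.345% and 0.414%). GAGGAAGT (ETS/PU.1) matched in 4.41% (3.66% and 3.22%), and the ISRE of interferon-regulated genes in 4.41% (3.15% and 3.46%). The NRF1 motif matched in 7.35% (11.5% and 4.63%), GGAATG (TEAD) in 7.35% (10.4% and 14.6%) and TGTGGT (RUNX) in 13.2% (12% and 16.6%). No motif contains another, though a palindromic CACGTG counts as a match of ACGTG on either strand. The windows cover promoters alone, so the larger number of regions away from starts is not described by these shares.

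**Figure D4:**
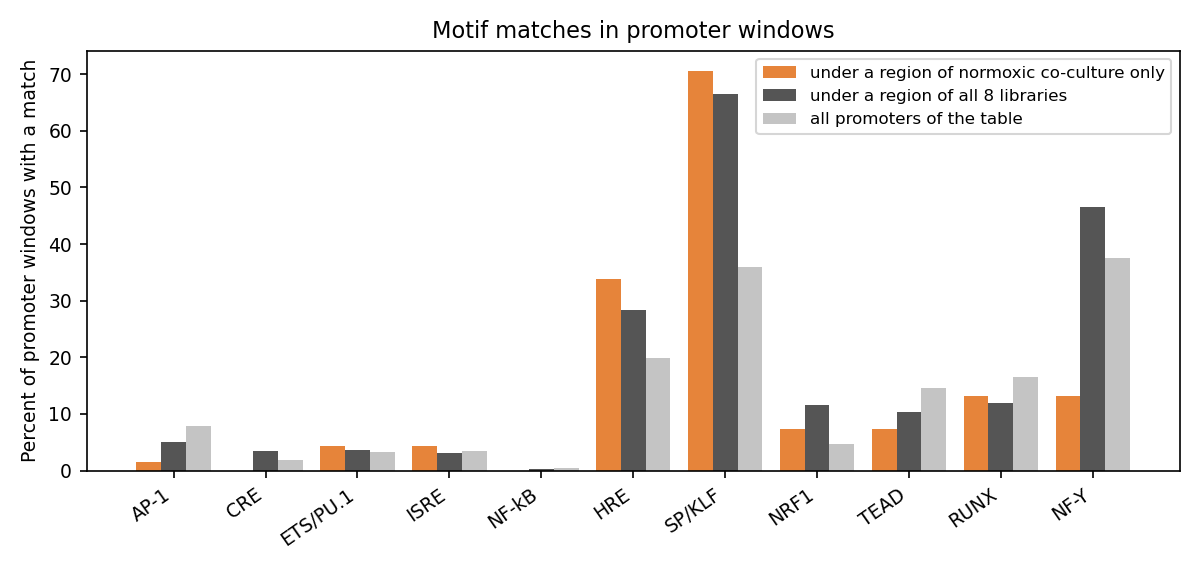
Bars give the percent of 300-base promoter windows (vertical axis) that hold at least 1 match to each of 11 motifs (horizontal axis), for 68 windows under regions of normoxic co-culture alone, 4344 under regions of all 8 libraries and all 32619 of the table. The CCAAT box (NF-Y) stands at 13.2%, 46.6% and 37.6%. Regions wider than 10 kb were left out for the 68 windows alone.

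Whether the surroundings of the 315 regions were more open in normoxic co-culture was asked of the other regions near them. The measure is the share of all regions called in a library that lay near the 315, which were not counted as near. The 315 did count in the totals of the normoxic co-culture libraries, which lowers the shares of those libraries. The measure is therefore not free of the rule. Within 50 kb of the 315 lay 1009 other regions. Of all regions called in a library, they made up 2.52% and 2.63% in normoxic co-culture and 2.53% and 2.27% in hypoxic co-culture. The shares were 2.59% and 2.53% in normoxic monoculture, and 2.53% and 2.53% in hypoxic monoculture. The groups overlapped. The mean was 2.57% ± 0.0774 (SD, n = 2) in normoxic co-culture and 2.50% ± 0.113 (SD, n = 6) in the other libraries, a difference of 0.0725 percentage points. A two-sided exact permutation test over the 28 ways to choose 2 of 8 libraries gave p = 0.464 (0.619 after Benjamini-Hochberg adjustment over the 4 groups' region classes), and its smallest possible p is 0.0357.

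Regions of hypoxic co-culture alone differed more in this measure. Other regions within 50 kb of them made up 6.63% and 6.45% of the regions called in hypoxic co-culture. This was above all 6 other libraries, which ranged from 4.83% to 6.26%. The difference was 0.895 percentage points (exact permutation p = 0.0714, adjusted p = 0.143), so neither class passed a threshold of 0.05. The difference between the classes was not tested.

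**Figure D5:**
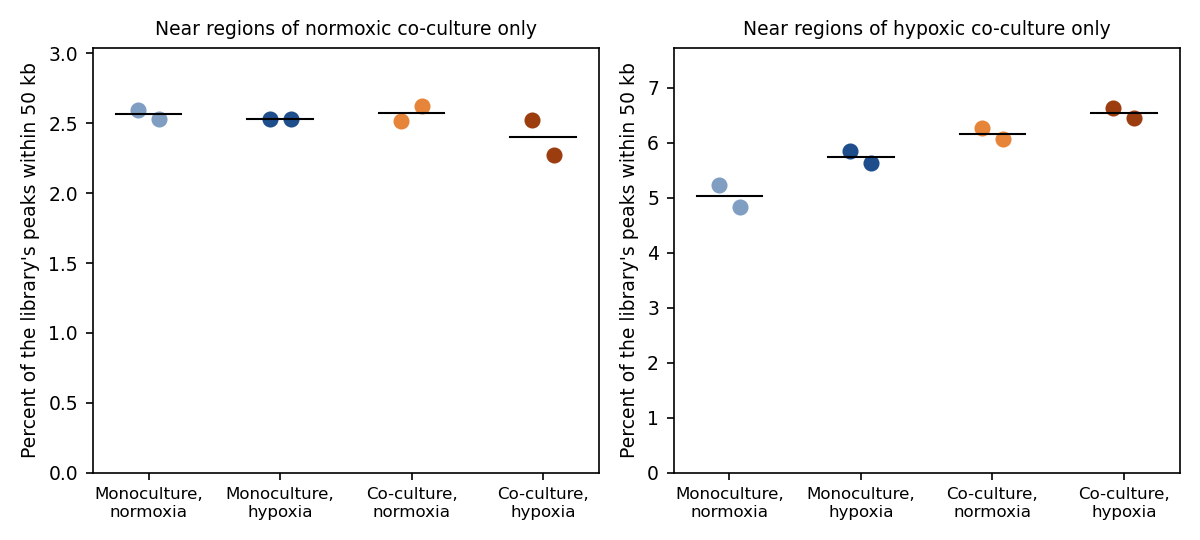
Points give, for each library, the percent of the regions called in it (vertical axes, labelled as its peaks) that lie within 50 kb. The left plot is for the 315 regions and the right for regions of hypoxic co-culture alone. Lines give the group means of 2 replicates. Around the 315 the libraries overlap between 2.27% and 2.63%, and on the right the hypoxic co-culture libraries are highest at 6.63% and 6.45%.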

How the data were processed

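Peaks were called per library; HISAT2 2.1.0, Trimmomatic 0.36, MACS2 2.1.1.2, Picard, SAMtools, deepTools and mm10 are named, without role or order, per the submitters' processing notes. The deposited lists give a score, a fold over background (a ratio), −log10 p, −log10 q and a summit offset per peak. These are the authors' values and were used within a list alone. Of all peaks, 64 on chromosome Y were left out.

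Peaks were merged on an overlap of 1 bp. A percentile ranks a region's best peak by −log10 p in its own list. Fragments at a summit were solved from fold and −log10 p (to within 0.001, up to 250) assuming a Poisson model, tested on simulated data. Depth is otherwise unknown, and intervals cover counting error only. Genes (49550) and 32619 promoter windows are RefSeq's for GRCm38.p6, the build of mm10; a region's gene is the one it overlaps or the nearest. Named are the 25 regions of highest lower percentile, those within 10 kb of a listed gene, 8 promoters and those at the threshold. The regions, 8 gene lists (216 genes) and motifs were chosen with earlier results of these data known. Peak calls got no test; shares per library got exact permutation tests. Alternatives changed the merging, thresholds, list lengths, distances and libraries. Python 3.11.15, numpy 2.4.6, pandas 2.3.3, scipy 1.17.1 and matplotlib 3.10.9 were used.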

Additional observations from a re-analysis of the deposited data

How the results depend on the processing

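The number of regions depended most on which peaks the lists held. It was 315 as reported, 171 with lists of equal length and 199 with a −log10 q of at least 5 in the normoxic co-culture lists, and leaving out 1 library gave 326 to 1662 (without replicate 1 of normoxic co-culture 1662, without its replicate 2 1290, without replicate 1 of hypoxic co-culture 630). Merging, overlap and equal-coverage settings gave 309 to 347 regions, a −log10 q of at least 3 gave 305 (in every list) or 295 (in the normoxic co-culture lists), and leaving out wide peaks gave 323. The share within 1 kb of a gene end was 27.9% for the 315 regions, 37.4% with lists of equal length, 44.4% within 5 kb, 21.6% for protein-coding genes, 20.7% for start sites, and 19.15% to 30.5% without 1 library. Listed genes near a region numbered 3 as reported, 2 with lists of equal length (Acly and Runx1, neither among the 3), 5 with windows around summits, 7 within 50 kb, and 3 to 21 without 1 library. The difference in shares around the regions kept its direction in 12 of 12 alternatives, from 0.0178 to 0.127 percentage points without 1 library. The replicate block among them can change the p-value alone, so its direction was fixed. All 12 of these alternatives, and the share at start sites, were chosen after seeing the data.

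The replicate block, which permutes within a replicate number, left that difference at 0.0725 percentage points (exact permutation p = 0.5). Its 16 regroupings allow no p below 0.0625, and those without 1 normoxic co-culture library none below 0.143, so their p-values could not pass 0.05. Whether libraries of the same number were handled together is not known here. Their deviations correlated between -0.0188 and 0.0913 across the 6 pairs of groups, with the highest value between normoxic and hypoxic co-culture. Regions missing from a list may lie under its threshold at that depth.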
